A study of Peromyscus polionotus with 11 samples.

Results

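The mitochondrial respiratory chain was followed on 11 arrays from 2 forebrain nuclei of the oldfield mouse (Peromyscus polionotus). Its members were the probe sets annotated with a single gene symbol that starts with Nduf, Uqcr or Atp5, that is Sdha, Sdhb, Sdhc, Sdhd or Cyc1, or that belongs to the Cox4 to Cox8 families of cytochrome c oxidase subunits. This gave 157 of the 22626 probe sets tested and 85 of 12393 genes. Complex I held 74 probe sets of 39 genes, complex II 7 of 4, complex III 16 of 9, complex IV 32 of 16 and complex V 28 of 17. The rule itself uses names only. The prefix Nduf also takes in 5 assembly factors of complex I (6 probe sets), which are described apart from its core (16 probe sets of 6 genes) and accessory subunits (52 of 28).

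Total RNA came from micropunches of the medial preoptic area, with samples 1 to 3 from long days (n = 3) and 4 to 6 from short days (n = 3), and of the bed nucleus of the stria terminalis, with samples 1 to 3 from long days (n = 3) and 4 and 5 from short days (n = 2). No genotype, further treatment, age or hour count of the day lengths was given in the sources used here, and the labels do not tie a sample to a named animal. What the p-values measure is thus the scatter among these samples, which may be in part technical. The question of the study was whether photoperiod changes gene expression in these nuclei. The probes were designed for the house mouse, so differences in sequence can lower the signal of a probe set by an unknown amount, and levels of different probe sets were not set against each other. In punches of whole tissue, fewer cells of a type and less RNA per cell cannot be told apart.

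The respiratory chain lies in the inner mitochondrial membrane. Complex I takes electrons from NADH, and complex II, which is also the succinate dehydrogenase of the citrate cycle, takes them from succinate. Both pass them by way of ubiquinone to complex III, which hands them through cytochrome c to complex IV, where oxygen is reduced. The proton gradient that this builds up drives complex V, the ATP synthase. Most subunits are encoded in the nucleus, a small set in mitochondrial DNA, and neurons draw most of their ATP from this pathway.

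All arrays had a median intensity of 19. Pairwise correlations of log2 intensity over probe sets ran from 0.9604 to 0.9894. The short-day preoptic array numbered 6 stood apart on the first principal component (23.2% of the variance), at 31.2 against -25.4 to 6.63 for the other 10. Counts below 0 and medians of the whole respiratory chain that rest on it are also given without it. Values of single probe sets are mostly given with it only. The nuclei were told apart by their markers. The summed intensity of 32 probe sets for hypothalamic and preoptic neurons was 4071 to 5301 in the preoptic samples and 2973 to 3643 in the bed nucleus samples, and that of 26 probe sets for striatal neurons was 2191 to 3690 against 3870 to 4897. Neither pair of ranges overlapped. Of the respiratory chain probe sets, 119 (79 genes) had a mean above the array median and 38 lay at or below it, where a step of 1 intensity unit is coarse.

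Most respiratory chain probe sets had a lower mean signal in the bed nucleus than in the medial preoptic area. The log2 difference in intensity, bed nucleus minus medial preoptic area, lay below 0 for 116 of the 157 probe sets (73.9%) and above 0 for 41. Over all probe sets tested the share below 0 was 49.8%. The median difference of the respiratory chain was -0.09, against 0.00 over all probe sets. Without the short-day preoptic sample 6, 121 of the 157 lay below 0 and the median was -0.10. At an unadjusted p under 0.05 there were 33 respiratory chain probe sets (21%), all lower in the bed nucleus, where the share over all probe sets was 11.9% (1295 higher and 1390 lower). After Benjamini-Hochberg adjustment over all 22626 probe sets, 2 passed the threshold of 0.05 (1.27%, against 1.03% over all probe sets), a share near the background. Both were flavoprotein subunits of complex I.

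The direction was not confined to dim probe sets. Of the 119 respiratory chain probe sets with a mean above the array median, 91 (76.5%) were lower in the bed nucleus, with a median of -0.14. Among all probe sets above the median the share was 48.3% and the median 0.01. Of the 38 at or below the median, 25 were lower. Of 45 genes with more than 1 probe set, 22 had all of them lower, 2 had all of them higher and 21 were mixed. Of the 40 genes with 1 probe set, 27 were lower. Probe sets of a gene share a target and are not replicates.

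**Figure D1:**
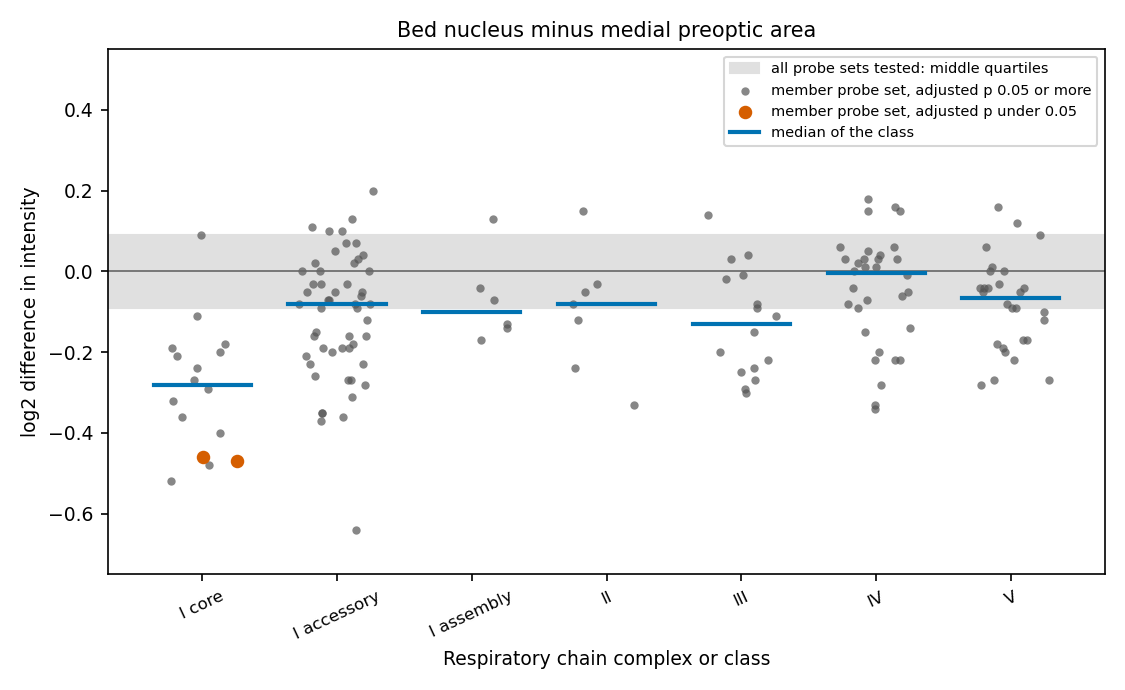
Log2 difference in intensity between the bed nucleus and the medial preoptic area for each respiratory chain probe set, by complex or class, with each class's median as a line and the middle quartiles of all probe sets tested as a band. The medians run from -0.28 for the core of complex I to about 0 for complex IV, and the 2 probe sets with an adjusted p under 0.05 are both in the core of complex I.

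The core of complex I had the lowest median. Of its 16 probe sets, 15 were lower in the bed nucleus and the median was -0.28. An unadjusted p under 0.05 was reached by 9 (56.2%, against 11.9% over all probe sets), all lower. Ndufv1 carries the flavin mononucleotide that takes electrons from NADH. Its probe set 1456015_x_at read 54, 66 and 55 in the long-day and 63, 54 and 54 in the short-day preoptic samples. In the bed nucleus it read 46, 41 and 43 in long days and 41 and 39 in short days. Every bed nucleus sample was below every preoptic sample. The log2 difference was -0.47 ± 0.10 (SE, adjusted p = 0.0211, limma).

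Both further Ndufv1 probe sets lay in the same direction but missed the threshold. Probe set 1415966_a_at read 99, 148, 100, 114, 124 and 71 in the preoptic samples 1 to 6 and 87, 84, 89, 62 and 65 in the bed nucleus samples 1 to 5 (-0.52 ± 0.14, adjusted p = 0.0748, limma). The ranges overlapped through the short-day preoptic sample 6, the lowest of its nucleus. Probe set 1415967_at read 117, 159, 139, 128, 147 and 95 against 125, 105, 109, 97 and 83 (-0.36 ± 0.12, adjusted p = 0.184, limma). Here too the preoptic sample 6 lay among the bed nucleus samples.

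Ndufv2, the flavoprotein subunit next to Ndufv1 that binds an iron-sulfur cluster, had 1 probe set past the threshold. Its probe set 1438159_x_at read 86, 125 and 94 in long-day and 90, 104 and 101 in short-day preoptic samples. The bed nucleus samples read 75, 77 and 70 in long days and 68 and 73 in short days. The nuclei did not overlap, and the log2 difference was -0.46 ± 0.11 (adjusted p = 0.0371, limma). Probe set 1452692_a_at read 905, 1334, 854, 1051, 1199 and 1015 in the preoptic samples and 934, 692, 828, 682 and 711 in the bed nucleus (-0.48 ± 0.12, adjusted p = 0.061, limma). The long-day bed nucleus sample 1 overlapped the preoptic range. The remaining one, 1428179_at, was at -0.21 (adjusted p = 0.446, limma).

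**Figure D2:**
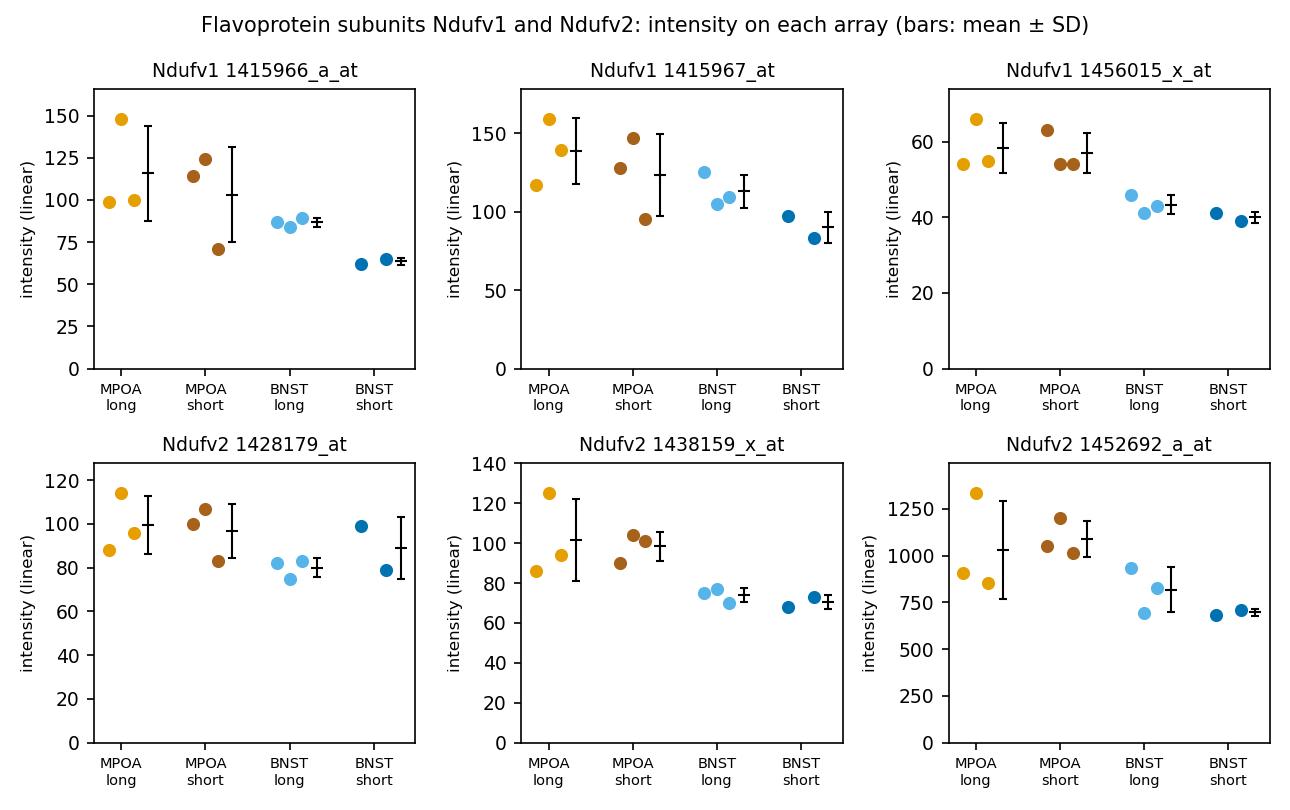
Intensity on each array of the 6 probe sets of Ndufv1 and Ndufv2, the flavoprotein subunits of complex I, by nucleus and day length, with the mean and SD of each group. For Ndufv1 1456015_x_at and Ndufv2 1438159_x_at every bed nucleus point lies below every preoptic point, and the other 4 overlap.

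These 2 calls depended on single arrays. No respiratory chain probe set passed when the long-day preoptic sample 2, the long-day bed nucleus sample 2, or either short-day bed nucleus sample (4 or 5) was left out, and 1 passed without any one of 5 others. Without the long-day preoptic sample 1, 3 passed, and without the short-day preoptic sample 6, 3 passed, of which 1 was among the 2. The sign did not turn in the 18 alternatives that kept these probe sets, but the call was lost in 5 of them for Ndufv1 and in 10 for Ndufv2. The difference of Ndufv1 1456015_x_at ran from -0.49 to -0.35 (adjusted p 0.0123 to 0.109) and that of Ndufv2 1438159_x_at from -0.52 to -0.38 (0.025 to 0.162). Both probe set names carry the ending _x_at, which marks possible matches to other transcripts. Of the 157 probe sets, 81 have names in _x_at, _s_at or _a_at, here called cross-match endings. The term is wide, because _a_at marks alternative transcripts of the same gene rather than matches to other genes. None of the other 76 passed the threshold when those 81 were left out.

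Ndufs8, a core subunit that holds iron-sulfur clusters on the path to ubiquinone, was lower in the bed nucleus at all 6 of its probe sets, with differences of -0.40 to -0.19. At 1455283_x_at it read 287, 477, 341, 391, 446 and 299 in the preoptic samples and 329, 279, 324, 284 and 220 in the bed nucleus (-0.40 ± 0.13, adjusted p = 0.19, limma). At 1423907_a_at it read 980, 1391, 1166, 1239, 1279 and 969 against 1033, 923, 1134, 966 and 795 (-0.29, adjusted p = 0.291, limma). In both the preoptic samples 2 and 5 were highest and the bed nucleus sample 5 was lowest, and the nuclei overlapped. None of the 6 passed the threshold.

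The other core subunits had smaller differences. Ndufs7, another iron-sulfur subunit, was at -0.24 (1451312_at, adjusted p = 0.324, limma) and -0.11 (1424313_a_at). Ndufs3 was at -0.18. Ndufs1, the largest iron-sulfur subunit, was the 1 core probe set above 0, at 0.09 (adjusted p = 0.801, limma).

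Array by array, the median deviation of the 16 core probe sets from their own mean over the 11 arrays was -0.02, 0.34 and 0.09 in the long-day and 0.15, 0.28 and -0.13 in the short-day preoptic samples. In the bed nucleus it was -0.02, -0.14 and -0.03 in long days and -0.20 and -0.37 in short days. The preoptic samples 2 and 5 were highest and the bed nucleus samples 4 and 5 lowest. The preoptic samples 1 and 6 lay within the range of the bed nucleus samples. The same measure over all probe sets tested stayed within 0.01 of 0 on every array, which the equal array medians largely fix. Over all probe sets above the array median it ran from -0.04 to 0.04. There it was -0.04 in the preoptic sample 6, and -0.01 and -0.04 in the short-day bed nucleus samples. With 1 array left out at a time, the core median between the nuclei ran from -0.38 to -0.22.

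**Figure D3:**
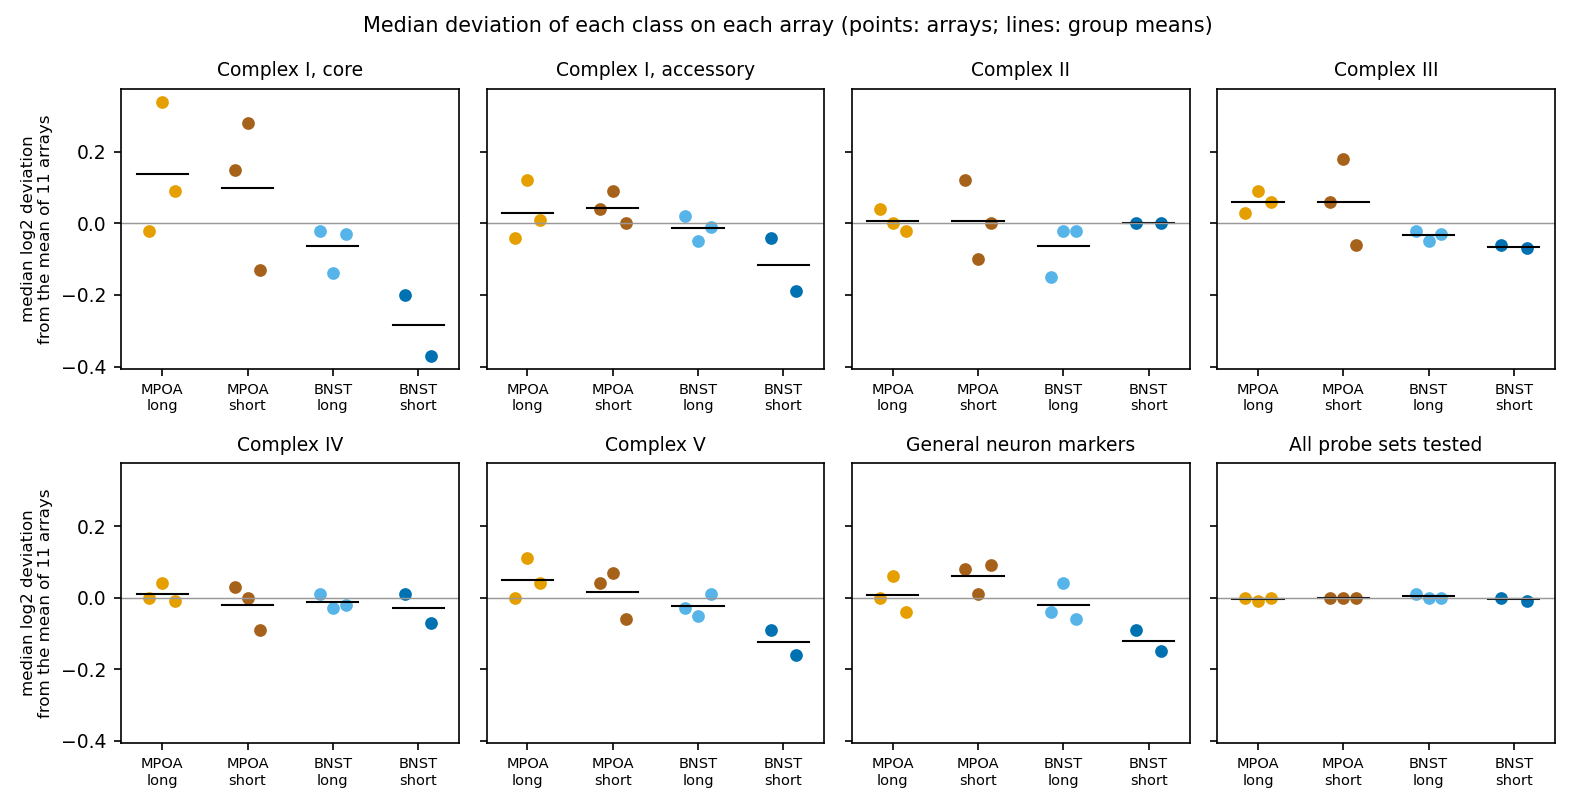
Median log2 deviation of the probe sets of a class from their mean over the 11 arrays, 1 point per array, with lines at group means, for the core and accessory subunits of complex I, complexes II to V, general neuron markers and all probe sets tested. The core of complex I spans -0.37 to 0.34, while all probe sets tested, largely fixed by the equal array medians, stay within 0.01 of 0.

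The accessory subunits of complex I surround the core and are needed for its assembly and stability. Of their 52 probe sets, 39 were lower in the bed nucleus and 13 higher, with a median of -0.08. None passed the threshold, and 10 had an unadjusted p under 0.05 (19.2%, against 11.9% over all probe sets), all lower. Ndufa3 had the lowest difference of the whole respiratory chain. At 1452790_x_at it read 20, 42, 22, 23, 34 and 23 in the preoptic samples and 23, 16, 17, 14 and 17 in the bed nucleus (-0.64 ± 0.17, adjusted p = 0.0726, limma). The preoptic samples 2 and 5 stood above the rest. The values are near the array median, and its other probe set was at -0.27.

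Ndufb11 was lower at all 3 of its probe sets, with -0.37 (adjusted p = 0.148, limma), -0.27 and -0.23. Its probe set 1416056_a_at read 54, 65, 52, 58, 68 and 47 in the preoptic samples and 56, 42, 45, 42 and 40 in the bed nucleus. Other low accessory probe sets were those of Ndufb5 at -0.36 (1417102_a_at), Ndufv3 at -0.35, Ndufb3 at -0.35, Ndufc1 at -0.31 (1416285_at) and Ndufa6 at -0.28. Their adjusted p ran from 0.149 to 0.189 (limma). The further probe set of Ndufb5 was at -0.19. That of Ndufc1, 1448284_a_at, was at 0.13, the opposite sign. These accessory genes were chosen after their values were seen. Ndufa4, which is named for complex I but is also found in complex IV, was at -0.03. Of the 6 probe sets for the assembly factors Ndufaf1, Ndufaf3, Ndufaf4, Ndufaf5 and Ndufaf7, 5 were lower, with a median of -0.10 and none with an unadjusted p under 0.05.

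Complex II, whose 4 subunits are all encoded in the nucleus, had 6 of 7 probe sets lower in the bed nucleus and a median of -0.08. Its catalytic flavoprotein Sdha was at -0.24 (1426689_s_at, adjusted p = 0.39, limma) and -0.03. This first probe set read 44, 42, 35, 45, 35 and 45 in the preoptic samples and 29, 37, 29, 37 and 39 in the bed nucleus, so the nuclei overlapped. The iron-sulfur subunit Sdhb was at -0.08. The membrane anchor Sdhd was at -0.33 in one probe set (1437489_x_at, adjusted p = 0.312, limma) and 0.15 in the other, and the anchor Sdhc at -0.12 and -0.05.

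Complex III had 13 of 16 probe sets lower and a median of -0.13, with none past the threshold. At an unadjusted p under 0.05 there were 5 (31.2%, against 11.9% over all probe sets), all lower. Uqcrc2, a large structural core protein, read 1649, 2067, 1730, 1718, 2020 and 1658 in the preoptic samples at 1435757_a_at. The bed nucleus samples read 1431, 1335, 1527, 1518 and 1619. The nuclei did not overlap, but the difference was -0.27 with an adjusted p of 0.254 (limma), and its other probe set was at -0.09. With the pair from Ndufv1 and Ndufv2 this made 3 respiratory chain probe sets (1.91%) with every bed nucleus sample below every preoptic sample. Over all probe sets tested that share was 0.769%. None had every bed nucleus sample above every preoptic sample, where the share over all was 0.703%.

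Of the subunits that carry the electron path of complex III, cytochrome c1 (Cyc1) read 46, 49, 47, 51, 51 and 47 against 41, 42, 44, 48 and 32 (-0.25, adjusted p = 0.326, limma). Its bed nucleus sample 4 lay within the preoptic range and sample 5 was the lowest. The Rieske iron-sulfur protein Uqcrfs1 was at -0.15 (adjusted p = 0.628, limma).

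Complex IV was split evenly, with 16 probe sets lower and 16 higher and a median near 0, whose sign changed between the alternatives. Of its probe sets, 4 had an unadjusted p under 0.05 (12.5%, near the 11.9% over all probe sets), all lower. The 6 probe sets of Cox5b, a zinc-binding subunit, ran from -0.34 to 0.16. The lowest, 1456588_x_at, read 831, 1027, 737, 851, 935 and 717 in the preoptic samples and 757, 571, 708, 726 and 591 in the bed nucleus (-0.34 ± 0.12, adjusted p = 0.197, limma). Its probe set at 0.16 (1448514_at) was below the array median. Cox5a was lower at all 3 of its probe sets (-0.28, -0.22 and -0.04).

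Several subunits of complex IV exist as isoforms, some of them best known from heart and muscle or from particular tissues. The differences of such pairs were small. Cox4i1, the widespread form of subunit 4, was at -0.06 and Cox4i2 at 0.05. Cox7a1, the heart and muscle form, was at 0.06, and the widespread Cox7a2 at 0.18 and 0.03. The related Cox7a2l, which helps complexes III and IV to associate, was at -0.07, -0.01 and 0.15. The Cox6a1 probe sets were at 0.06 and 0.03. Cox6b1 was at -0.22 and -0.05 and Cox6b2 at 0.01. Cox8a was at -0.14, -0.08 and 0.04, and Cox8b at 0.15. No adjusted p of these was under 0.469 (limma).

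Complex V had 22 of 28 probe sets lower and a median of -0.07, with none past the threshold. At an unadjusted p under 0.05 there were 3 (10.7%, near the 11.9% over all probe sets), all lower. The lowest were both probe sets of Atp5j2, a subunit of the membrane sector, at -0.28 (1416269_at) and -0.27 (1435395_s_at, adjusted p = 0.28, limma), and Atp5d, a subunit of the central stalk, at -0.27 (1456580_s_at). The catalytic subunits of the head were closer to 0, with Atp5a1 at -0.09, -0.05 and -0.04 and Atp5b at -0.17. The genes for the proton-carrying ring subunit were at -0.18 (Atp5g1), -0.09 and 0.09 (Atp5g2) and -0.04 (Atp5g3).

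Other mitochondrial lists gave a mixed picture between the nuclei. Of 34 probe sets for pyruvate dehydrogenase and the citrate cycle, which supply NADH and succinate, 27 were lower in the bed nucleus (median -0.13). An unadjusted p under 0.05 was reached by 12 (35.3%, against 11.9% over all probe sets), all lower. The threshold was passed by 2 (5.88%, against 1.03% over all). Mdh2, the mitochondrial malate dehydrogenase, read 338, 387, 324, 326, 379 and 336 in the preoptic samples and 243, 259, 242, 250 and 243 in the bed nucleus. The nuclei did not overlap (-0.49 ± 0.09, adjusted p = 0.0107, limma). Its cytosolic partner in the malate-aspartate shuttle, Mdh1, read 31, 27, 34, 29, 27 and 25 against 26, 23, 22, 18 and 15 at 1434319_at (-0.54 ± 0.10, adjusted p = 0.00869, limma). These ranges overlapped only in the preoptic sample 6 and the bed nucleus sample 1. Another Mdh1 probe set, the one kept where 1 probe set per gene was used, did not pass the threshold. Without the short-day bed nucleus sample 5 the adjusted p became 0.0711 for Mdh2 and 0.0933 for Mdh1.

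Of 48 probe sets for further assembly factors of the complexes, 25 were lower (median -0.02) and 1 passed (2.08%, against 1.03% over all probe sets). This was Bcs1l, which inserts the Rieske protein into complex III. It read 247, 464, 259, 299, 359 and 219 in the preoptic samples and 249, 190, 212, 165 and 166 in the bed nucleus (-0.66 ± 0.15, adjusted p = 0.0406, limma). The preoptic samples 2 and 5 were again highest, and the call was lost in 9 of 20 alternatives, in which the adjusted p reached 0.157. Mobile carriers, nucleotide transporters and channels had 22 of 33 lower (median -0.09), ubiquinone synthesis 8 of 13 (-0.03), mitochondrial ribosomal proteins 72 of 127 (-0.03) and regulators of mitochondrial biogenesis 18 of 39 (0.00). None of these lists had a member past the threshold.

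The array also held 1 probe set for a subunit encoded in mitochondrial DNA, ND5 of the membrane arm of complex I. It read 190, 87 and 72 in long-day and 78, 44 and 24 in short-day preoptic samples, and 32, 22 and 25 in long-day and 51 and 38 in short-day bed nucleus samples. The difference between the nuclei was -1.0 ± 0.24 (adjusted p = 0.0514, limma). Between day lengths it was -1.28 ± 0.33 in the preoptic area (adjusted p = 1, limma) and 0.76 ± 0.36 in the bed nucleus (adjusted p = 0.396, limma). The difference of these effects was 2.04 ± 0.49 (adjusted p = 0.436, limma). The long-day preoptic sample 1 was the highest, and day lengths did not overlap in the bed nucleus. ND5 was singled out after its values were seen.

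Of 20 probe sets for markers of neurons in general, 14 were lower in the bed nucleus (70%), the median was -0.12, and none passed. At an unadjusted p under 0.05 there were 6 (30%, against 11.9% over all probe sets), all lower. Array by array, their median deviation was 0.00, 0.06, -0.04, 0.08, 0.01 and 0.09 in the preoptic samples 1 to 6. In the bed nucleus samples 1 to 5 it was -0.04, 0.04, -0.06, -0.09 and -0.15. For the respiratory chain the values were 0.00, 0.10, 0.03, 0.06, 0.08 and -0.05 in the preoptic samples. They were 0.00, -0.06, -0.02, -0.05 and -0.16 in the bed nucleus. The summed intensity of the neuron markers was 2689 to 3015 in the preoptic and 2402 to 2827 in the bed nucleus samples. Of the 20, 14 were above the array median. The median was 0.03 for oligodendrocytes (27 probe sets, summed 841 to 1049 against 961 to 1463), 0.02 for astrocytes (28, 5456 to 5815 against 5312 to 6337) and 0.00 for microglia (17, 359 to 392 against 359 to 389). It was 0.03 for ependyma and choroid plexus (9, 191 to 213 against 183 to 233), 0.05 for vessels (19, 398 to 428 against 371 to 487) and 0.08 for red cells (5, 69 to 91 against 81 to 92). No marker was listed at 0. Striatal markers were higher in the bed nucleus at 25 of 26 probe sets (median 0.38), with 8 past the threshold (30.8%). Hypothalamic markers were lower at 24 of 32 (median -0.14), with 6 past the threshold lower and 1 higher (21.9%). The share past the threshold over all probe sets was 1.03%. The part of these cell types in the difference of the respiratory chain was not tested.

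Day length was then compared within each nucleus. For short against long days in the medial preoptic area, the threshold was passed by none of the probe sets on the array (0% called, limma), the respiratory chain included. At an unadjusted p under 0.05 there were 5 respiratory chain probe sets (3.18%), 2 higher and 3 lower in short days, against 3.5% over all probe sets. The log2 difference, short minus long days, lay below 0 for 87 of 157 (55.4%, against 49% over all), with a median of -0.01. This direction turned in several alternatives. Without the short-day sample 6 the difference lay below 0 for 59 (median 0.04), without the long-day sample 2 for 64 (0.03), with array weights for 71 (0.01), and with cross-match endings left out for 35 of 76 (0.01). Among the markers, those of striatal neurons were lower in short days at 22 of 26 probe sets (median -0.17, summed intensity 2725 to 3690 in long-day and 2191 to 2806 in short-day samples) and those of hypothalamic and preoptic neurons higher at 23 of 32 (0.10, 4071 to 5052 against 4380 to 5301). None passed the threshold, and their part in the result was not tested. The medians of the classes ran from -0.03 (complexes III and V) through -0.02 (core of complex I, complex IV) to 0.03 (complex II) and 0.10 (assembly factors of complex I).

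The preoptic probe sets with the smallest p included dim ones and genes whose probe sets differed in sign. Ndufa10, an accessory subunit, read 36, 28 and 32 in long days and 37, 40 and 46 in short days at 1418068_at (0.36 ± 0.14, adjusted p = 1, limma), and 0.15 was the difference at its other probe set. Ndufb6 read 32, 31 and 33 in long days and 26, 28 and 21 in short days at 1434057_at (-0.37 ± 0.16, adjusted p = 1, limma), and 0.05 was the difference at the other. Both had groups that did not overlap, as had 8 of the 157 respiratory chain probe sets (5.1%, near the 5.19% over all probe sets). Ndufs7 was at -0.42 (1424313_a_at, 8 to 15 across the preoptic samples) and 0.06. Cox8a read 87, 75 and 102 in long days and 115, 101 and 113 in short days at 1448222_x_at (0.33 ± 0.14, adjusted p = 1, limma), where the groups overlapped. All 3 Cox8a probe sets lay above 0 (0.08 to 0.33).

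In the bed nucleus 10 probe sets of the array passed the threshold for short against long days (0.0442%), none of them of the respiratory chain. At an unadjusted p under 0.05 there were 15 (9.55%), 7 higher and 8 lower, fewer than the 12.7% over all probe sets. The difference lay below 0 for 102 of 157 (65%, against 52.7% over all), with a median of -0.09 against -0.01. Among probe sets above the array median it lay below 0 for 85 of 119 respiratory chain probe sets (71.4%) and for 60.6% of all. This count depended on the scaling and on 1 array. With quantile normalization 86 of 157 lay below 0 (median -0.04), and without the short-day sample 5, 88 did (median -0.02). The long-day and short-day samples did not overlap for 40 probe sets (25.5%, 30 lower and 10 higher in short days), near the 23.7% over all probe sets for 3 samples against 2.

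By class the bed nucleus differences had medians on both sides of 0. Of the 16 core probe sets of complex I, 15 were lower in short days (median -0.24). With quantile normalization 13 were lower (-0.16), and without the short-day sample 5, 14 (-0.13). An unadjusted p under 0.05 was reached by 2 of them (12.5%, near the 12.7% over all probe sets). Of all probe sets above the array median, 60.6% were lower in short days (median -0.06). The accessory subunits had 35 of 52 lower (-0.11 in the median). The median was -0.04 for complex III (10 of 16 lower; 0.00 with quantile normalization and 0.01 without sample 5), -0.07 for complex IV (19 of 32; -0.01 with quantile normalization and 0.01 without sample 5) and -0.06 for complex V (19 of 28; -0.03 with quantile normalization). Without the other short-day sample, 4, they were -0.15 for complex IV and -0.12 for complex V. Complex II had 2 of 7 lower and a median of 0.21, which was 0.10 with log2(value + 16), 0.12 without sample 5, 0.13 without the long-day sample 2, 0.04 with 1 probe set per gene and 0.03 with cross-match endings left out. The assembly factors of complex I had 2 of 6 lower and a median of 0.06. General neuron markers were lower in short days at 14 of 20 probe sets (median -0.18, summed intensity 2526 to 2827 in long and 2402 to 2574 under short days), those of vessels at 12 of 19 (-0.13, 429 to 487 against 371 to 436) and those of ependyma and choroid plexus at 6 of 9 (-0.06, 207 to 233 against 183 to 191). The medians of the other marker lists ran from -0.11 (red cells) to 0.04 (oligodendrocytes). The ependymal sums did not overlap between the day lengths. No marker passed the threshold, and their part in the result was not tested.

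**Figure D4:**
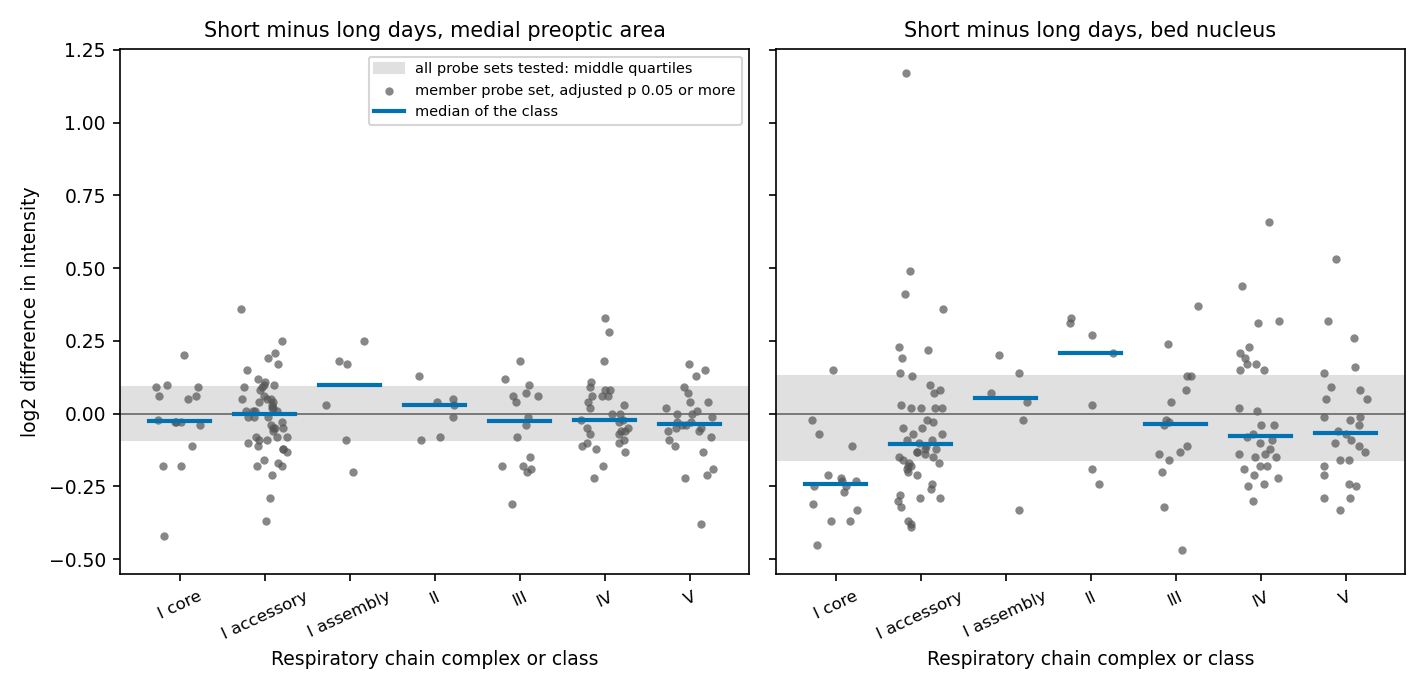
Log2 difference in intensity between short and long days for each respiratory chain probe set, by complex or class, in the medial preoptic area (left) and the bed nucleus (right), with class medians as lines and the middle quartiles of all probe sets tested as bands. In the bed nucleus the core of complex I has a median of -0.24 and complex II of 0.21 (0.03 with cross-match endings left out), in the medial preoptic area -0.02 and 0.03, and no point passed the threshold.

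Within the core the bed nucleus differences between day lengths varied by gene and by probe set. Ndufv1 1415966_a_at, given above, was 87, 84 and 89 under long and 62 and 65 under short days (-0.45), and 1415967_at was at -0.33, but 1456015_x_at was at -0.11. All 6 Ndufs8 probe sets lay between -0.37 and -0.21. Ndufs7 1451312_at read 100, 109 and 111 under long and 85 and 80 under short days (-0.37, adjusted p = 0.311, limma). The Ndufv2 probe sets were at -0.22, -0.07 and 0.15.

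Ndufc1, a small accessory subunit of complex I, had the largest difference of the respiratory chain between day lengths. At 1448284_a_at it read 331, 531 and 570 in long-day and 703 and 1559 in short-day bed nucleus samples. The groups did not overlap, and sample 5 was more than any other array (1.17 ± 0.28, adjusted p = 0.106, limma). In the preoptic samples it read 813, 504 and 667 under long and 558, 532 and 831 under short days (-0.05). The difference of the effects was 1.22 ± 0.38 (adjusted p = 0.45, limma). Its further probe set, 1416285_at, was at -0.19 in the bed nucleus, the opposite sign.

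Further probe sets with a small p in the bed nucleus lay in complexes I, III, IV and V. Atp5mpl, a small protein of the membrane sector of ATP synthase, read 87, 111 and 117 under long and 160 and 142 under short days (0.53 ± 0.16, adjusted p = 0.179, limma). Cox6a1 read 17, 19 and 20 under long and 30 and 29 under short days at 1417417_a_at (0.66 ± 0.20, adjusted p = 0.179, limma), while its other probe set was at -0.15. Cox7a2l read 27, 28 and 27 under long and 36 and 38 under short days at 1432264_x_at (0.44 ± 0.14, adjusted p = 0.198, limma), with 0.15 and 0.02 at its others. The accessory subunit Ndufa10 read 31, 35 and 32 under long and 40 and 47 under short days at 1448934_at (0.41 ± 0.15, adjusted p = 0.245, limma), and its other probe set was at 0.13. These 4 were higher in both short-day samples than in any long-day sample of the nucleus. Uqcr10, a small subunit of complex III, read 30, 24 and 21 under long and 20 and 16 under short days at 1424364_a_at (-0.47 ± 0.17, adjusted p = 0.241, limma), with -0.03 and -0.04 at its others. In complex II, Sdha was at 0.27 and 0.03, Sdhc at 0.31 and -0.19, Sdhd at 0.33 and 0.21, and Sdhb at -0.24. None passed the threshold.

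**Figure D5:**
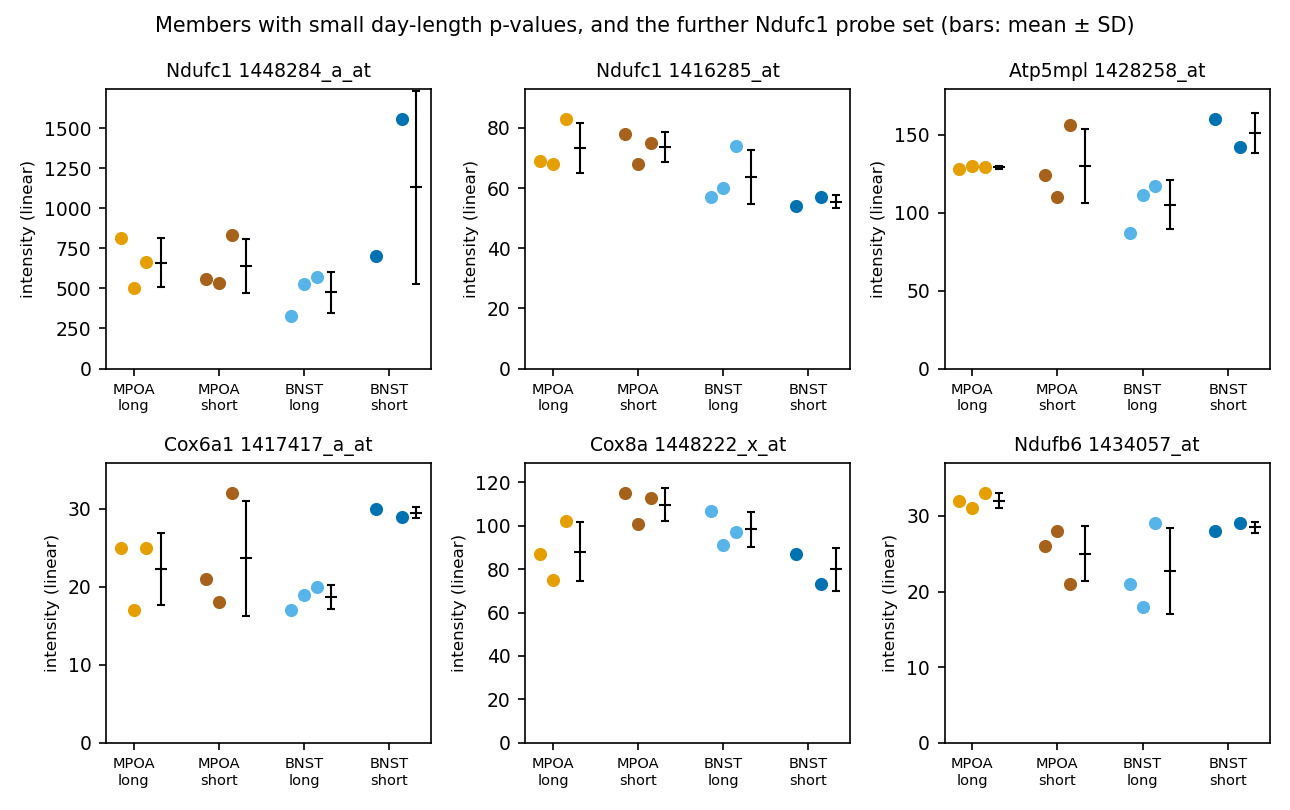
Intensity on each array of Ndufc1 (2 probe sets), Atp5mpl, Cox6a1, Cox8a and Ndufb6, by nucleus and day length, with the mean and SD of each group. Ndufc1 1448284_a_at reaches 1559 in the short-day bed nucleus sample 5, while Ndufc1 1416285_at does not follow it, and for Cox8a and Ndufb6 the difference between day lengths has opposite signs in the nuclei, with an adjusted p of 0.472 and 0.47 for the difference of the effects.

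Averaged over the nuclei, 3 probe sets of the array passed the threshold for day length (0.0133%) and none of the respiratory chain. At an unadjusted p under 0.05 there were 14 (8.92%, against 9.02% over all). The mean difference lay below 0 for 104 of 157, where the share over all was 52.3%, with a median of -0.05. With quantile normalization it lay below 0 for 87 (median -0.02). Without the short-day bed nucleus sample 5 it did so for 85 (-0.01), and without the short-day preoptic sample 6 for 91 (-0.02). Among respiratory chain probe sets above the array median the mean difference lay below 0 for 86 of 119 (72.3%, median -0.06). For all probe sets above the array median the share was 60.6% (median -0.03). Of the 16 core probe sets 15 lay below 0, with a median of -0.10, and 12 with quantile normalization. Ndufc1 1448284_a_at was at 0.56 ± 0.19 (adjusted p = 0.428, limma).

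No probe set of the array passed for the difference of the day length effects, bed nucleus minus medial preoptic area (0% called). At an unadjusted p under 0.05 there were 12 respiratory chain probe sets (7.64%, 7 higher and 5 lower), against 8.34% over all. The difference lay below 0 for 93 of 157, against 52.6% over all, and its median was -0.06. With quantile normalization these were 83 and -0.02, and without the short-day preoptic sample 5 they were 82 and -0.01. Without the short-day preoptic sample 6 they were 103 and -0.11. Among respiratory chain probe sets above the array median the difference lay below 0 for 79 of 119 (66.4%, median -0.09). For all probe sets above the array median the share was 57.8% (median -0.05). The core of complex I had 13 of 16 below 0 and a median of -0.25, or 12 and -0.17 with quantile normalization and 12 and -0.13 without the preoptic sample 5. Among the markers, those of general neurons lay below 0 at 14 of 20 (median -0.18) and of ependyma and choroid plexus at 7 of 9 (-0.24), and those of striatal neurons above 0 at 22 of 26 (0.28). Their part in the result was not tested. Cox8a 1448222_x_at, higher in short days in the preoptic area, was lower in the bed nucleus (107, 91 and 97 under long and 87 and 73 under short days), with a difference of the effects of -0.63 ± 0.21 (adjusted p = 0.472, limma). Ndufb6 1434057_at went the other way, with 21, 18 and 29 in long-day and 28 and 29 in short-day bed nucleus samples (0.73 ± 0.24, adjusted p = 0.47, limma). An opposite course of these genes in the nuclei was thus not shown at this number of arrays.

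The related mitochondrial lists had no probe set past the threshold in any day length comparison. In the bed nucleus 77 of 127 probe sets for mitochondrial ribosomal proteins (median -0.06), 21 of 33 for carriers and channels (-0.10), 28 of 48 for assembly factors (-0.05), 8 of 13 for ubiquinone synthesis (-0.04), 21 of 39 for biogenesis regulators (-0.03) and 19 of 34 for the citrate cycle (-0.01) were lower in short days. In the medial preoptic area their medians ran from -0.02 to 0.04.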

How the data were processed

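The values deposited by the authors are intensities per probe set on a linear scale, in whole numbers with a median of 19 on every array. RMA version 3.4 is named in the submitters' processing notes. Further steps: not given in the sources used here. Symbols are those of the platform's annotation table. Of 22626 probe sets left after 64 controls, 20380 carry 1 symbol, 691 several and 1555 none. Deposited intensities were turned into log2 without a pseudocount. In limma 3.58.1 (R 4.3.3), lmFit and eBayes fitted 4 group means over the 11 arrays (7 residual and 12.9 prior degrees of freedom). The 5 comparisons were tested two-sided, with Benjamini-Hochberg adjustment over all probe sets and a threshold of 0.05. The script was tested on simulated data. The number of arrays limits the precision, and no detection call was used.

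The members and lists were chosen with earlier results of these data known. Named were probe sets past the threshold with the other probe sets of their gene, the 2 smallest p of each complex in each comparison, core subunits of complexes I to III, isoform sets and catalytic and ring subunits of complex V, and related genes past the threshold. The accessory subunits Ndufa3, Ndufb11, Ndufb5, Ndufv3, Ndufb3 and Ndufa6, Cox5a and ND5, and the day length values of Ndufv1 and Ndufs8, were picked after their values were seen. Alternatives were quantile normalization, centring on the array mean, leaving out dim probe sets or those with cross-match endings, a trended and robust prior, array weights, log2(value + 16), 1 probe set per gene, a threshold of 0.10, a block on the sample number, and each array left out in turn. Cross-match endings took in _a_at, which marks alternative transcripts of the same gene, besides _s_at and _x_at. The labels do not say whether a number shared by the nuclei marks 1 animal, and samples were not treated as paired. No sequences were analysed here.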

Additional observations from a re-analysis of the deposited data

How the results depend on the processing

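The count of respiratory chain probe sets past the threshold between the nuclei, 2 as reported, was 2 with quantile normalization or centring on the array mean, 3 without dim probe sets, with a trended and robust prior or with log2(value + 16), 4 with array weights, 5 at an adjusted p under 0.10, and 0 with 1 probe set per gene or without cross-match endings. With 1 array left out it ran from 0 to 3. Same-numbered samples of the nuclei did not deviate together (correlations from -0.02791 to 0.07276), and with a replicate block on the number, in which the preoptic sample 6 has no partner and adds nothing, 2 passed, 1 of them shared. In the day length comparisons and their difference 0 passed in every alternative run. The median between the nuclei, -0.09, became -0.14 without dim probe sets, and -0.06 with log2(value + 16) or with cross-match endings left out, where 49 of 76 were lower. With 1 array left out the bed nucleus day length median ran from -0.14 to -0.02, and that of the difference of the effects from -0.12 to -0.01. Of 2420 alternative values for 121 named probe sets and comparisons, 2331 kept sign and side of the threshold. Most of the 121 were uncalled from the start, so keeping that side says little about stability. There were 44 uncalled values that changed sign, 26 that lost and 19 that gained a call, and no called value reversed. Calls were lost in 5 of 18 alternatives for Ndufv1 and 10 of 18 for Ndufv2. They were lost in 9 of 20 for Bcs1l and in 1 of 19 for each of Mdh1 and Mdh2. Low signal limits the 38 dim probe sets most.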
